A study of Mus musculus with 4 samples.

Results

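The genes described here encode the mitochondrial ribosomal proteins of the mouse. They were taken from the deposited gene tables as every protein-coding row whose symbol starts with Mrpl or Mrps followed by a digit. This gave 77 of the 20194 genes listed, and all 77 were listed at both stages. By their known place in the mammalian mitochondrial ribosome, 50 belong to the large subunit and 26 to the small subunit. Mrps18a and Mrps30 count with the large subunit in spite of their names. Mrps36 carries a ribosomal name, but its product is known as a component of the 2-oxoglutarate dehydrogenase complex, an enzyme of the citric acid cycle, and it is kept apart.

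RNA from brain endothelial cells of C57BL/6 mouse embryos was sequenced at embryonic days 15 (E15) and 18 (E18). Each of the 4 groups is represented here by a single library, although the design text speaks of triplicates. They are UCP2ECKO at E15, WT at E15, UCP2ECKO at E18 and WT at E18. UCP2ECKO embryos carried UCP2f/f;Tie2-cre, floxed Ucp2 alleles together with a Cre recombinase transgene under the promoter of Tie2. Tie2 is a gene of endothelial cells and some blood cells. WT embryos are given as wild type with no further allele. Ucp2 encodes a carrier protein of the mitochondrial inner membrane. How the cells were isolated, which exons were floxed and whether embryos were pooled are not given in the sources used here.

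Mitochondria keep their own ribosome, which translates the few messenger RNAs of the mitochondrial genome into core subunits of the respiratory chain and of ATP synthase. Its ribosomal RNAs come from the mitochondrial genome, while all of its proteins are encoded in the nucleus, made in the cytosol and imported. Many of these proteins have counterparts in bacterial ribosomes, and the others were added during the evolution of mitochondria. The nuclear genes are known for promoters with sites of the transcription factors NRF1, GABPA (a member of the ETS family) and YY1.

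The promoters are shown first, since shared promoter letters are one feature of the genes that the choice of members did not use. RefSeq promoter windows on GRCm38.p6, from 250 bases before to 50 bases after a start, were at hand for 68 of the 77 genes. Each was searched on both strands for an NRF1 core (GCATGCG), an ETS motif (CCGGAAG) and a YY1 motif (AAGATGGC). The ETS motif was present for 25 of the 68 genes (36.8%), against 9.9% of all 27025 gene symbols with a window. The YY1 motif was present for 12 (17.6%, against 3.2% of all symbols) and the NRF1 core for 8 (11.8%, against 4.0%). These letters are matches and not measured binding sites. The 27025 symbols outnumber the 20194 genes listed here, so they include genes without reads in these libraries. The share among listed genes was not computed, and windows were not matched for base composition. Whether the excess is particular to these genes was not tested.

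To show what such a promoter looks like, the 250 bases before the start are printed for 4 genes, 5′ to 3′ on the strand of the gene. They were taken from 27 genes with at most 30 annotated exon bases there. Mrpl17 and Mrpl9 have the highest mean expression of those with the NRF1 core, and Mrpl3 and Mrps18a the highest of those with the ETS motif once Mrpl17, which holds both, is left out. Capitals mark the motifs.
Mrpl17, chr7:105811088-105811337, minus strand: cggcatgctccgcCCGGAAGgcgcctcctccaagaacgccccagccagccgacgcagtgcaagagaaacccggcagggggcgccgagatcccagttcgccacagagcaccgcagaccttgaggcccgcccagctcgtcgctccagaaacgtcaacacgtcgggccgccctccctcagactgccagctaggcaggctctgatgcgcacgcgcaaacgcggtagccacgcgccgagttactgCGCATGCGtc
Mrpl9, chr3:94443086-94443335, plus strand: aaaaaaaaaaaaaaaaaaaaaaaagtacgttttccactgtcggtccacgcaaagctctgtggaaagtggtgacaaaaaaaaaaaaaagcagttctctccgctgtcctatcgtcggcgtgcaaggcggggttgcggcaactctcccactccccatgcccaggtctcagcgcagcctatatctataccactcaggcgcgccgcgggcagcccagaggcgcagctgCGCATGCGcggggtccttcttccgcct
Mrpl3, chr9:105053018-105053267, plus strand: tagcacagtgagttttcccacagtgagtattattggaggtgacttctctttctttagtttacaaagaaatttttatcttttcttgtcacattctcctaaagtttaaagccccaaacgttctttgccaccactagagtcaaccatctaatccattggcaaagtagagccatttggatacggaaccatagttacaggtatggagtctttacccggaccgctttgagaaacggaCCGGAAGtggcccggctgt
Mrps18a, chr17:46110754-46111003, plus strand: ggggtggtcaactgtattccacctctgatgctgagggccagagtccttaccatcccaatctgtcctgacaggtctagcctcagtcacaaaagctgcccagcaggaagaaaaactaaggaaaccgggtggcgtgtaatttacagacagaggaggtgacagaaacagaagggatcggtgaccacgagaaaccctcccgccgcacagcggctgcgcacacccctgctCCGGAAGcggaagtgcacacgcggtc
The NRF1 core of Mrpl17 and of Mrpl9 reads on both strands, so that the 2 matches form 1 run of capitals that starts 10 bases before the start of Mrpl17 and 27 bases before that of Mrpl9. The ETS motif began 19 bases before the start of Mrpl3 and 26 bases before that of Mrps18a. Mrpl17, a protein next to the peptide exit tunnel, also held an ETS motif far upstream.

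The YY1 motif is printed with up to 8 bases on each side for all 12 genes that held it, because their genotype ratios are described as a group below. Capitals mark the motif, written GCCATCTT where it lies on the opposite strand.
Mrpl32, chr13:14613264-14613287, minus strand: cgcgctctGCCATCTTtacccgga
Mrpl35, chr6:71823746-71823769, minus strand: caggctgcAAGATGGCggcttcca
Mrpl36, chr13:73330971-73330994, plus strand: gaccttacGCCATCTTtcttcctg
Mrpl37, chr4:107066825-107066848, minus strand: cacgggcaAAGATGGCggcgtcca
Mrpl42, chr10:95501907-95501930, minus strand: attgaagcAAGATGGCgagcgcgc
Mrpl49, chr19:6057724-6057747, minus strand: gaggcgccAAGATGGCagcagcgg
Mrps11, chr7:78783016-78783039, plus strand: cgggcgccGCCATCTTtctgtctt
Mrps12, chr7:28742005-28742028, minus strand: tggacgcaGCCATCTTggagtgga
Mrps18a, chr17:46111007-46111030, plus strand: tgcgttccAAGATGGCggccctca
Mrps24, chr11:5707652-5707673, minus strand: gccggcccAAGATGGCgtggtc
Mrps27, chr13:99344792-99344815, plus strand: tgcgctccAAGATGGCggctccca
Mrps7, chr11:115604150-115604173, plus strand: cagcggccAAGATGGCtgcccccg
In 8 of the 12 genes the motif lay on the strand of the gene and began 12 to 37 bases after the start. In the other 4 it lay on the opposite strand and began before the start, up to 242 bases away.

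The libraries held 16328300 reads on genes for UCP2ECKO and 15542930 for WT at E15, and 21992660 for UCP2ECKO and 19075407 for WT at E18. Levels are given as CPM, the reads of a gene per 1000000 reads of its library. The difference between 2 libraries is the log2 ratio of CPM + 1, and with 1 library a group it has no replicate check and no test. A gene entered a comparison if it had at least 1 CPM in 1 of the libraries and 50 reads over both. The 95% interval beside a ratio is the exact Clopper-Pearson interval of the plain ratio of reads scaled by the library totals. It covers counting error only and holds no added 1, so at low counts the log2 ratio can lie nearer to 0 than its interval.

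The deleted gene was checked first. Ucp2 had 2666 reads in the UCP2ECKO library and 4285 in the WT library at E15 (log2 ratio -0.75, interval -0.83 to -0.69), and 3296 in UCP2ECKO and 6696 in WT at E18 (-1.22, -1.29 to -1.17). Transcript remained in both UCP2ECKO libraries. The E18 pair differed in sex-specific transcripts, with 547 reads of Xist and 0 of the Y-linked Ddx3y in UCP2ECKO, against 0 of Xist and 5826 of Ddx3y in WT. At E15 Xist had 2109 reads in UCP2ECKO and 2549 in WT, so the WT libraries of the 2 stages differ in Xist as well. Summed over 10 endothelial markers, the E15 libraries held 17500 CPM in UCP2ECKO and 14900 CPM in WT. The sums at E18 were 17400 CPM in UCP2ECKO and 16700 CPM in WT. By single marker, 8 of the 10 were lower in UCP2ECKO at E15 (median log2 ratio -0.05). The 2 higher ones were Flt1 (1.15) and Cldn5 (0.30). At E18 5 markers were higher in UCP2ECKO and 5 lower. All 8 markers of microglia and macrophages had reads at E15, and their sum was 226 CPM in UCP2ECKO and 530 CPM in WT. At E18 all 7 listed had reads, with sums of 49.1 CPM in UCP2ECKO and 30.3 CPM in WT. The 8 mural markers, all with reads in every library, summed to 4890 CPM in UCP2ECKO and 7320 CPM in WT at E15, and to 11600 CPM in UCP2ECKO and 9320 CPM in WT at E18. Neuronal markers summed to 49.8 CPM in UCP2ECKO and 99.5 CPM in WT at E15, with reads for all 8, and to 47.6 CPM in UCP2ECKO and 49.1 CPM in WT at E18, where 1 of the 8 was at 0 in UCP2ECKO. Fibroblast markers summed to 147 CPM in UCP2ECKO and 309 CPM in WT at E15 and to 215 CPM in UCP2ECKO and 211 CPM in WT at E18, and erythroid markers to 508 CPM in UCP2ECKO and 403 CPM in WT at E15 and to 718 CPM in UCP2ECKO and 909 CPM in WT at E18. Fewer cells of a type and less RNA per cell cannot be told apart in such bulk libraries, and the part of cell makeup and sex in the ratios below was not tested.

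Together the 77 genes took a nearly constant share of each library. They held 43040 reads, 0.264% of the library (interval 0.261 to 0.266), in UCP2ECKO and 38711 reads, 0.249% (0.247 to 0.252), in WT at E15. At E18 they held 55802 reads, 0.254% (0.252 to 0.256), in UCP2ECKO and 46283 reads, 0.243% (0.24 to 0.245), in WT. The share was thus higher in UCP2ECKO than in WT at each stage, by more than the counting error. The median gene had 31.1 CPM in UCP2ECKO and 26.8 CPM in WT at E15, and 28.1 CPM in UCP2ECKO and 25.9 CPM in WT at E18.

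Levels of single genes spread far more than their ratios between libraries. Per kilobase of annotated exons and averaged over the 4 libraries, the highest of the 77 was 1160-fold above the lowest, with a median of 11.6 CPM per kb. All 13028 genes that passed at either stage had a median of 4.75 CPM per kb, and the median of the ribosomal protein genes lay at the 70.7th percentile among them. The highest levels belonged to Mrpl27 (77.8 CPM per kb), which lies close to the peptidyl transferase centre, Mrpl10 (64.0), at the base of the stalk that receives translation factors, and Mrpl36 (61.3), a homologue of bacterial protein L36. Mrpl2, near the peptidyl transferase centre, followed at 52.6, Mrpl41 at 51.9 and Mrpl34 at 51.3 CPM per kb. These ranks depend on the length used. Per kilobase of the principal transcript alone, Mrpl27 stayed highest (101). By that length Mrps11 (66.2), Mrps18a (65.4) and Mrps15 (62.7) stood above Mrpl2 (59.7).

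The lowest levels per kilobase of annotated exons belonged to Mrps34 (0.0673 CPM per kb), Mrpl33 (0.186), Mrpl13 (0.327), Mrps18b (0.392), Mrps25 (0.468) and Mrps22 (0.469). Per kilobase of the principal transcript alone, Mrpl33 had 2.85 and Mrpl13 2.12 CPM per kb, both above Mrps36 (1.18). Mrps34 stayed lowest (0.151). Mrps34, a small-subunit protein without a bacterial counterpart, had 3 reads in UCP2ECKO and 1 in WT at E15, and 1 in UCP2ECKO and 5 in WT at E18. Reads that fit more than 1 gene are a known weakness of counting by gene, and 62.7% of the bases of Mrps34 overlap exons of Mapk8ip3, which had 1057 reads in UCP2ECKO and 982 in WT at E15. In Mrps25 75.6% of the bases were shared with Nr2c2, a nuclear receptor gene, or with a near-identical copy. Shared bases were counted in the principal transcript of each gene, against any exon or transcript of other genes. Over all 77 genes, 43 had bases shared with another gene, by overlapping exons or by a stretch of at least 100 bases at 95% identity, and 34 had none. The median level was 9.87 CPM per kb with shared bases, 11.9 CPM per kb without, and 3.12 CPM per kb for the 10 genes with at least 50% shared bases. Those 10 also included the highest gene, Mrpl27, with 77.6% of its bases shared with copies or with Eme1. Whether counting lost or gained reads there was not tested.

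**Figure D1:**
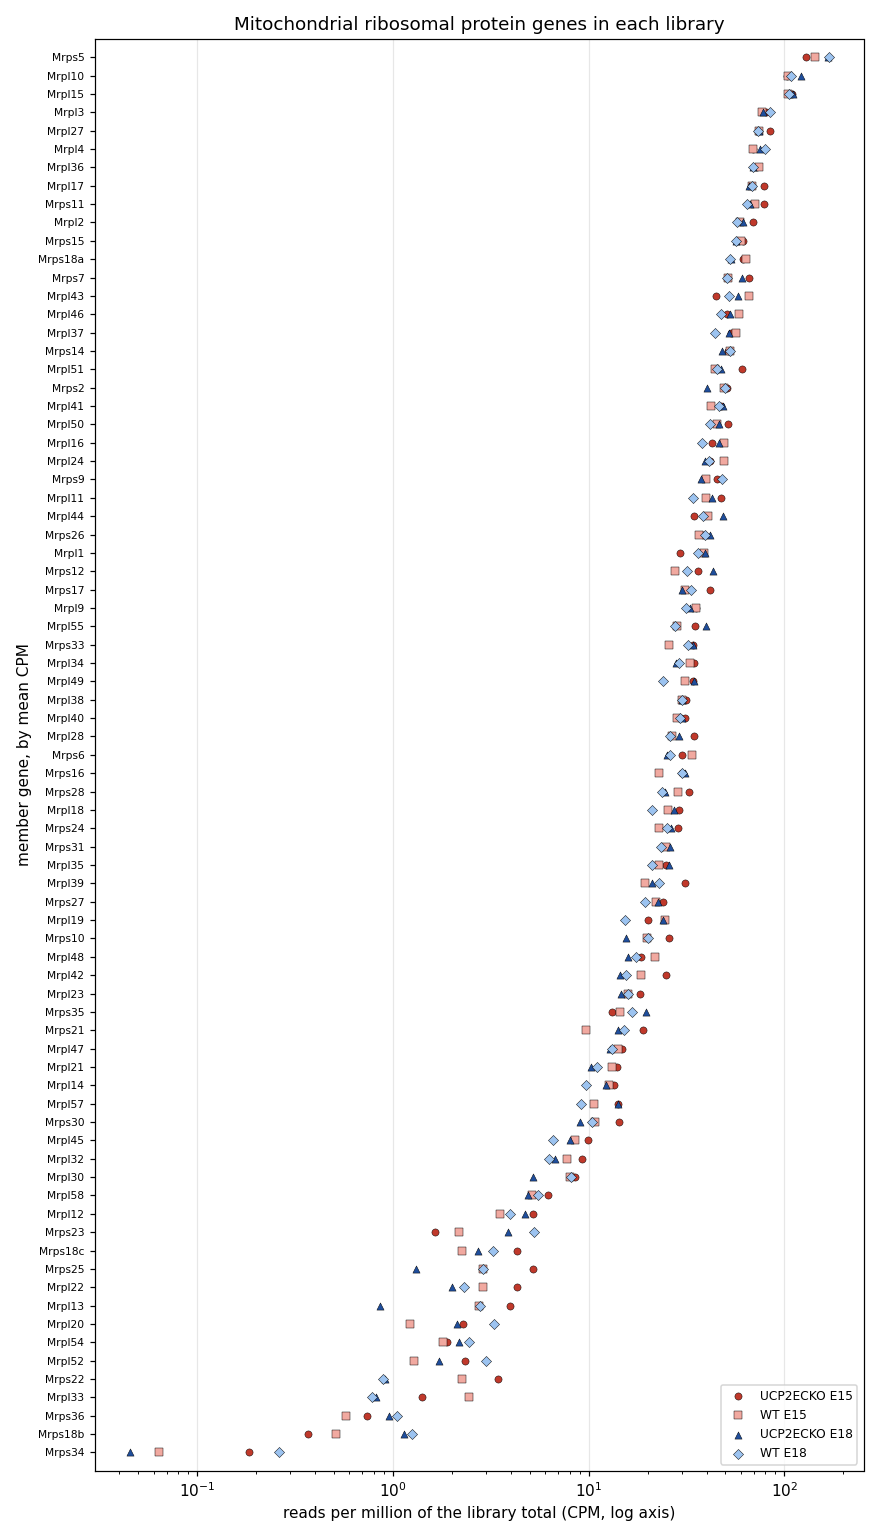
Reads per 1000000 of the library total (CPM, log axis) of the 77 genes in each library, one row per gene ordered by mean CPM, with circles for UCP2ECKO at E15, squares for WT at E15, triangles for UCP2ECKO at E18 and diamonds for WT at E18. The 4 symbols of a gene lie close together above about 10 CPM and spread apart below it.

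At E15 the ribosomal protein genes were mostly a little higher in the UCP2ECKO library than in the WT library. Of the 74 genes that passed, 54 (73.0%) had a log2 ratio above 0, against 49.4% of all 12633 genes tested. Their median log2 ratio was 0.14, with quartiles of -0.02 and 0.36, against a median of -0.01 over all genes. No gene of the 77 reached a 2-fold difference, which 3.55% of all genes reached upward and 3.32% downward. The counting interval lay wholly above 0 for 29 genes (39.2%, against 28.9% of all genes) and wholly below 0 for 10 (13.5%, against 30.5%). Mrps34, Mrps18b and Mrps36 did not pass. The median was 0.12 in the large subunit, with 36 of 50 genes above 0, and 0.19 in the small subunit, with 18 of 24.

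**Figure D2:**
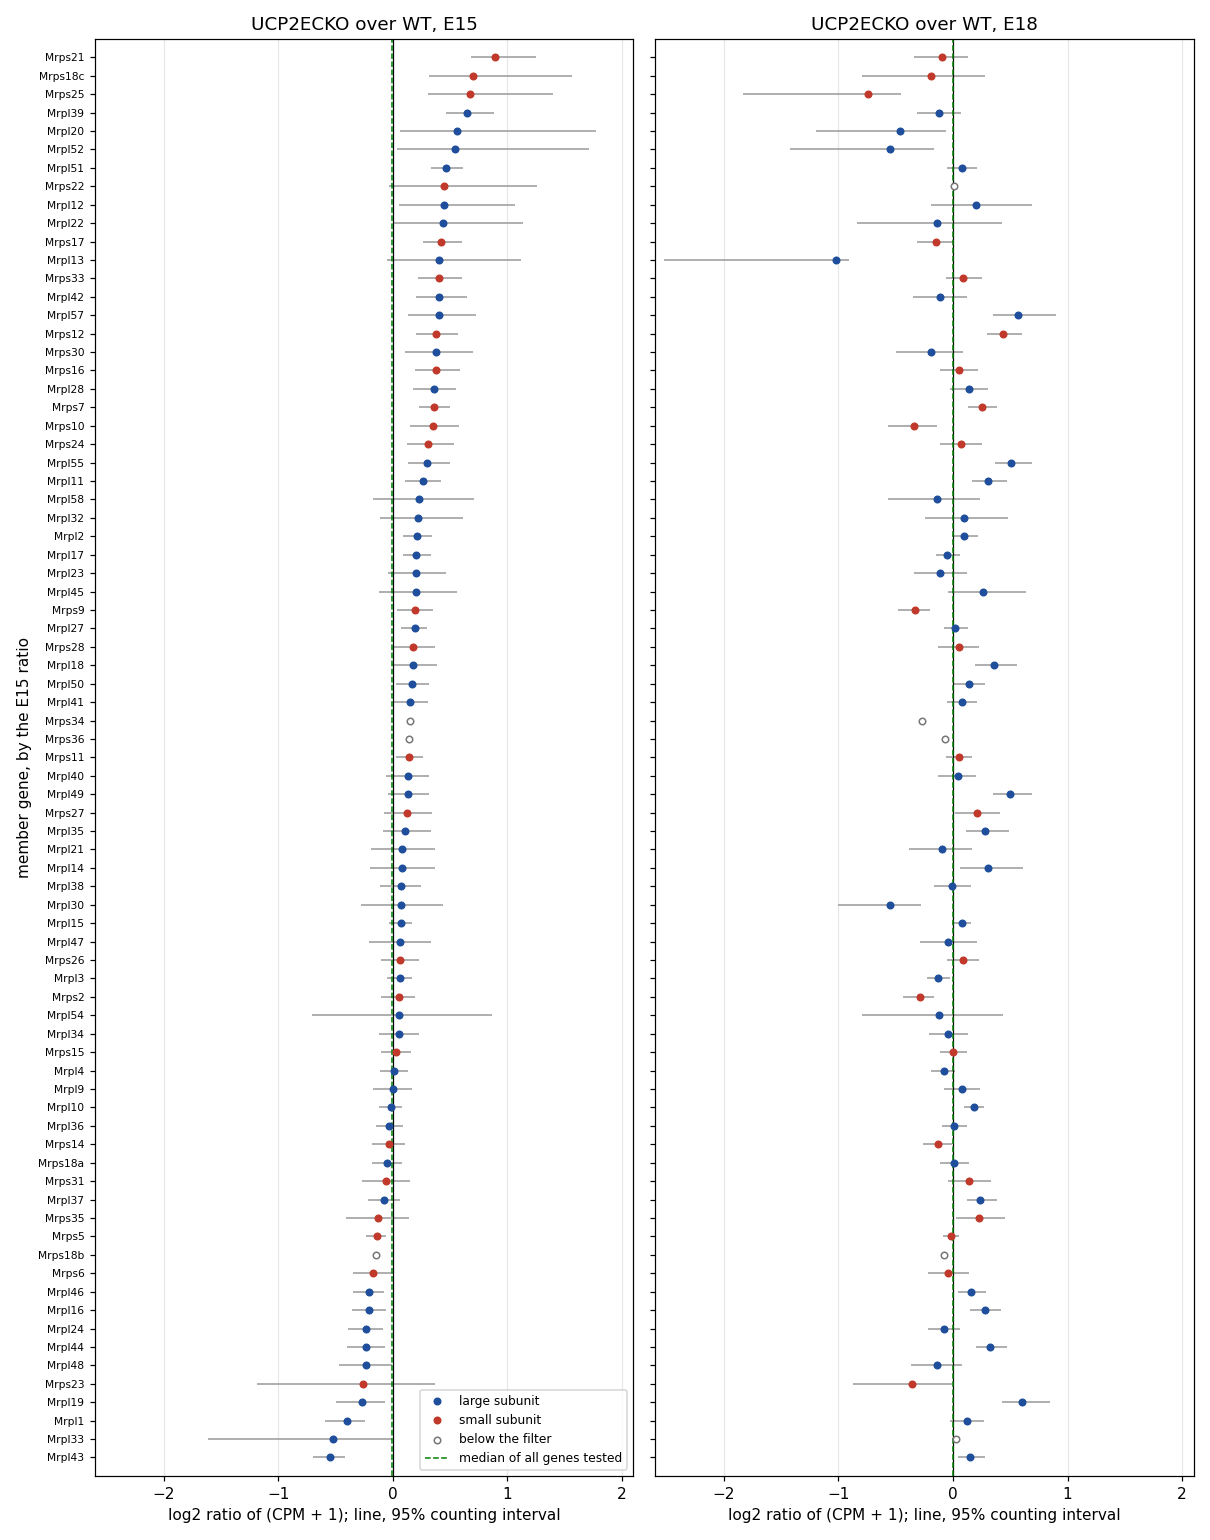
Log2 ratio of CPM + 1, UCP2ECKO over WT, of each gene at E15 (left) and E18 (right), ordered by the E15 ratio, with large-subunit genes in blue, small-subunit genes in red and genes below the filter as open circles without an interval. Horizontal lines are 95% counting intervals of the plain read ratio and the dashed line is the median of all genes tested. Most points lie right of 0 at E15, and at E18 they scatter around 0 with Mrpl13 far to the left.

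The small-subunit genes Mrps21, Mrps18c and Mrps25 had the highest E15 ratios. Mrps21, the homologue of bacterial S21, had 309 reads (18.9 CPM) in UCP2ECKO and 151 (9.72 CPM) in WT at E15, and 311 (14.1 CPM) in UCP2ECKO and 290 (15.2 CPM) in WT at E18. Its ratio was 0.89 at E15 (interval 0.68 to 1.25) and -0.10 at E18 (-0.34 to 0.13). The WT library at E15 was the low one of the 4, while the other 3 lay between 14.1 and 18.9 CPM. Of the bases of Mrps21, 54.1% were shared with a copy, Gm6181. Mrps18c, 1 of the 3 homologues of bacterial S18, had 70 reads in UCP2ECKO and 35 in WT at E15 (0.70, interval 0.32 to 1.56), and 60 in UCP2ECKO and 62 in WT at E18. Again WT at E15 held the fewest reads.

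Among large-subunit genes the E15 ratio was highest for Mrpl39, a protein without a bacterial counterpart, with no bases shared with another gene. Mrpl39 had 507 reads (31.1 CPM) in UCP2ECKO and 303 (19.5 CPM) in WT at E15 (0.65, interval 0.46 to 0.88), and 463 (21.1 CPM) in UCP2ECKO and 437 (22.9 CPM) in WT at E18. Here the UCP2ECKO library at E15 stood above the other 3. Mrpl20, whose bacterial homologue L20 acts early in assembly of the large subunit, had 37 reads in UCP2ECKO and 19 in WT at E15 (0.56, interval 0.06 to 1.77). Mrpl52 had 38 reads in UCP2ECKO and 20 in WT (0.54, interval 0.04 to 1.71). Both rested on few reads, and their intervals nearly reached 0.

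The lowest E15 ratio was that of Mrpl43, a large-subunit protein without a bacterial counterpart. Mrpl43 had 728 reads (44.6 CPM) in UCP2ECKO and 1022 (65.8 CPM) in WT at E15 (-0.55, interval -0.70 to -0.42), and 1275 (58.0 CPM) in UCP2ECKO and 992 (52.0 CPM) in WT at E18 (0.15, 0.04 to 0.28). Exons of Mrpl43 overlapped those of Twnk, the gene of the mitochondrial DNA helicase, over 27.5% of its bases, and Twnk had 263 reads in UCP2ECKO and 215 in WT at E15. The 2 neighbours thus had ratios on opposite sides of 0, -0.55 for Mrpl43 and 0.21 for Twnk. Mrpl1, the protein of the L1 stalk where the spent tRNA leaves the ribosome, had 476 reads (29.2 CPM) in UCP2ECKO and 604 (38.9 CPM) in WT (-0.40, interval -0.59 to -0.24). Mrpl33 had 23 reads in UCP2ECKO and 38 in WT (-0.52, -1.61 to -0.01). Smaller differences of the same sign were found for Mrpl19 (330 reads in UCP2ECKO and 382 in WT, log2 ratio -0.27), Mrps23 (27 in UCP2ECKO and 34 in WT, -0.26) and Mrpl24, a neighbour of the exit tunnel (683 in UCP2ECKO and 767 in WT, -0.23).

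At E18 the genes lay close to the middle of all genes. Of the 72 that passed, 41 (56.9%) had a ratio above 0, against 50.3% of all 12349 genes tested, and the median was 0.04, against 0.00 over all genes. The interval lay above 0 for 19 genes (26.4%, against 32.5% of all genes) and below 0 for 11 (15.3%, against 31.9%). A single gene, Mrpl13, was past 2-fold, on the lower side, which 3.92% of all genes reached, and none was on the upper side, which 2.88% reached. Mrps22 and Mrpl33 did not pass at E18, nor did the 3 that failed at E15. The position slightly above the middle rests on the setting. The median was -0.01 with 34 of 72 genes above 0 (47.2%) when ratios were centred by exonic length, and -0.01 with 17 of 35 above 0 (48.6%) without the genes whose span overlaps another gene. The large-subunit median was 0.08, with 29 of 49 genes above 0, and the small-subunit median 0.00, with 12 of 23.

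Mrpl13, a homologue of bacterial L13, had 19 reads (0.864 CPM) in UCP2ECKO and 53 (2.78 CPM) in WT at E18, and 65 (3.98 CPM) in UCP2ECKO and 43 (2.77 CPM) in WT at E15. Its ratio was -1.02 at E18 (interval -2.52 to -0.91) and 0.40 at E15 (-0.05 to 1.12). The UCP2ECKO library was therefore the highest of the 4 at E15 and the lowest at E18. At E18 Mrpl13 was under 1 CPM in UCP2ECKO and passed the filter only through the WT library. Exons of Mrpl13 overlapped those of Mtbp over 27.0% of its bases, and Mtbp had 649 reads in UCP2ECKO and 397 in WT at E18. Mrps25 had 29 reads in UCP2ECKO and 55 in WT at E18 (-0.74, interval -1.83 to -0.45), and 85 in UCP2ECKO and 45 in WT at E15 (0.67, 0.31 to 1.40). Its overlapping neighbour Nr2c2 was lower in UCP2ECKO as well at E18, with 41 reads, against 66 in WT. The next lowest E18 ratios were those of Mrpl30 (115 reads in UCP2ECKO and 155 in WT, -0.55), Mrpl52 (38 in UCP2ECKO and 57 in WT, -0.55), Mrpl20 (47 in UCP2ECKO and 63 in WT, -0.46) and Mrps23 (85 in UCP2ECKO and 100 in WT, -0.36).

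The highest E18 ratios came from better-counted genes. Mrpl19, a homologue of bacterial L19, had 525 reads (23.9 CPM) in UCP2ECKO and 293 (15.4 CPM) in WT at E18 (0.60, interval 0.43 to 0.85), and 330 (20.2 CPM) in UCP2ECKO and 382 (24.6 CPM) in WT at E15 (-0.27, -0.50 to -0.07). For Mrpl19 WT at E18 was the low library of the 4. Mrpl57 had 311 reads (14.1 CPM) in UCP2ECKO and 175 (9.17 CPM) in WT at E18 (0.57, 0.35 to 0.90), and 232 (14.2 CPM) in UCP2ECKO and 164 (10.6 CPM) in WT at E15 (0.40, 0.13 to 0.73). Mrpl55 had 877 reads (39.9 CPM) in UCP2ECKO and 527 (27.6 CPM) in WT at E18 (0.51), and 573 (35.1 CPM) in UCP2ECKO and 439 (28.2 CPM) in WT at E15 (0.30). In Mrpl57 and Mrpl55 both UCP2ECKO libraries lay above both WT libraries.

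Mrps12, the small-subunit protein at the decoding centre, had the same order of libraries. It had 950 reads (43.2 CPM) in UCP2ECKO and 604 (31.7 CPM) in WT at E18 (0.44, interval 0.30 to 0.60), and 588 (36.0 CPM) in UCP2ECKO and 428 (27.5 CPM) in WT at E15 (0.38, 0.20 to 0.57). No base of Mrps12 was shared with another gene. Mrpl49 had 760 reads in UCP2ECKO and 460 in WT at E18 (0.50), against 557 in UCP2ECKO and 482 in WT at E15 (0.13). Mrpl18, a protein of the central protuberance, had 600 reads in UCP2ECKO and 402 in WT at E18 (0.36), against 472 in UCP2ECKO and 394 in WT at E15 (0.18).

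**Figure D3:**
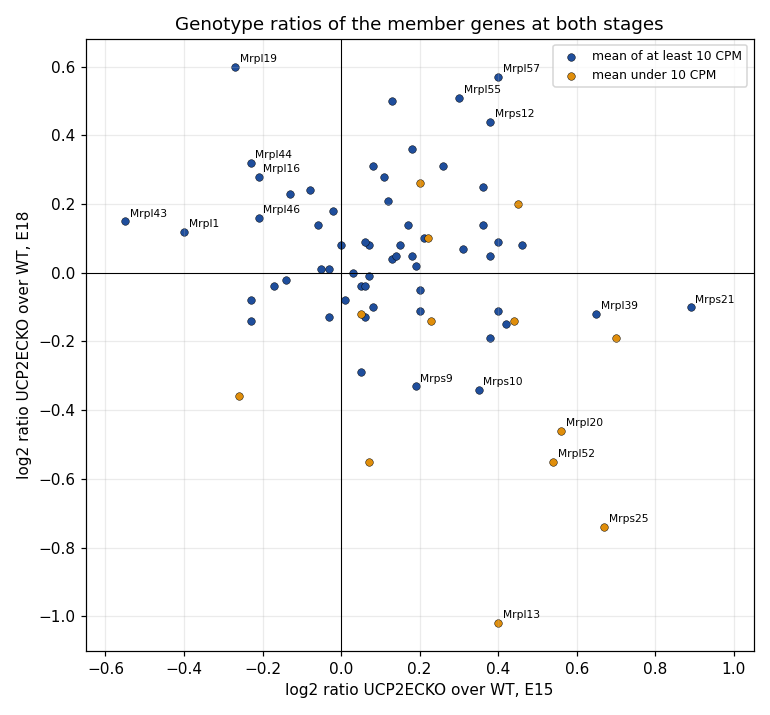
Log2 ratio of CPM + 1, UCP2ECKO over WT, at E15 (horizontal) and at E18 (vertical) of the 72 genes that passed at both stages, with genes averaging 10 CPM or more in blue and lower ones in orange. The upper right part holds 28 genes and the lower left part 6, and the orange points reach furthest down.

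The genotype ratios of the 2 stages come from separate libraries. Of the 72 genes that passed at both stages, 28 were higher in UCP2ECKO at both and 6 lower at both, while 25 were higher at E15 but lower at E18 and 13 the reverse. Among all 11784 genes passing at both stages 25.4% were higher at both, 26.0% lower at both, 23.9% higher at E15 only and 24.6% higher at E18 only. The counting intervals of the 2 stages lay on opposite sides of 0 for 10 of the 72 genes (13.9%, against 18.5% of all genes). Across the 72 genes Pearson's r of the 2 ratios was -0.28 and Spearman's rho -0.22, against 0.04 and 0.04 across all genes. Genes are not independent replicates, and these values describe 4 libraries.

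The direction differed with the level of the gene. The 59 genes averaging 10 CPM or more had a median ratio of 0.11 at E15 (41 above 0, 69.5%) and 0.07 at E18 (38 above 0, 64.4%). Over all genes of that level the median was -0.00 at E15 (49.4% above 0) and 0.01 at E18 (51.6%). Of the 18 genes with a mean under 10 CPM, the 15 that passed at E15 had a median of 0.40 with 13 above 0, and the 13 that passed at E18 had a median of -0.19 with 3 above 0. Over all genes of that level it was -0.01 at E15 (49.2% above 0) and -0.05 at E18 (47.0%). Most of these low genes were thus higher in UCP2ECKO at E15 and lower in it at E18. Their counting interval lay above 0 for 6 of 15 and below 0 for 1 at E15. At E18 it lay below 0 for 6 of 13 and above 0 for 0. Over all genes of that level it lay above 0 for 1013 of 3965 at E15 and below 0 for 1122 of 3750 at E18. Seen by library, UCP2ECKO at E15 held the highest CPM for 39 of the 77 genes (50.6%, against 30.8% of all genes passing at both stages). WT at E15 held it for 12 (15.6%, against 29.6%). The counts were 14 for UCP2ECKO at E18 (18.2%, against 21.7%) and 12 for WT at E18 (15.6%, against 17.9%). The 77 genes include those below the filter.

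The genes were also grouped by place in the ribosome. The 6 genes around the peptide exit tunnel had a median of 0.20 at E15, with 5 above 0, and -0.06 at E18, with 1 above 0. That 1 was Mrpl45, known to tether the ribosome to the inner membrane, with 177 reads in UCP2ECKO and 125 in WT at E18 (0.26, interval -0.04 to 0.64). The 6 genes of the small-subunit head had a median of 0.27 at E15, with 4 above 0, and -0.02 at E18, with 3. Among them Mrps7 had 1083 reads in UCP2ECKO and 801 in WT at E15 (0.36), and 1337 in UCP2ECKO and 972 in WT at E18 (0.25), while Mrps10 had 419 in UCP2ECKO and 309 in WT at E15 (0.35) and 344 in UCP2ECKO and 382 in WT at E18 (-0.34). The 4 genes of the L7/L12 stalk, which recruits elongation factors, had a median of 0.15 at E15 and of 0.19 at E18. The 4 genes near the peptidyl transferase centre had a median of 0.12 at E15 and of 0.06 at E18. The 46 genes with a bacterial counterpart and the 27 without had E15 medians of 0.11 and 0.13, over the 45 and 26 that passed.

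The genotype ratios were also grouped by the 3 motifs. At E15 the median was 0.18 for genes with any of the 3 motifs (27 of 36 above 0) and 0.14 for genes with none (21 of 30). At E18 the 12 genes with the YY1 motif printed above had a median of 0.15, with 11 above 0, and the 52 without it that passed had a median of -0.01, with 26 above 0. The exception was Mrpl42, with 316 reads in UCP2ECKO and 297 in WT (-0.11). Among the YY1 genes only Mrpl32 had a mean under 10 CPM (7.51), the level at which most E18 ratios lay below 0. All ribosomal protein genes averaging 10 CPM or more had an E18 median of 0.07. The part of expression level in the YY1 difference was not tested. At E15 the YY1 genes had a median of 0.14 with 9 of 12 above 0, against 0.18 with 39 of 54 for the others. For the ETS motif the E18 median was -0.01 with it (11 of 22 above 0) and 0.07 without it (26 of 42). Its E15 medians were 0.20 with it (19 of 24) and 0.14 without it (29 of 42). For the NRF1 core the E18 median was 0.02 with it (3 of 6) and 0.04 without it (34 of 58). Its E15 medians were 0.20 with it (4 of 7) and 0.15 without it (44 of 59). The motif comparison was made after the ratios were seen.

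Shared bases did not separate the ratios. The 34 genes without them had a median of 0.12 at E15 (26 above 0) and, for the 33 that passed, 0.05 at E18 (19 above 0). Gene length moved with the E15 ratio over all genes, and the ribosomal protein genes are short, with a median of 2533 exon bases against 4426 for all genes tested. When all genes were put in 10 classes of equal size by length, the shortest class had an E15 median of 0.06, while the 23 ribosomal protein genes in it had 0.18. In the next class the values were 0.13 for the 12 ribosomal protein genes and 0.05 for all genes. The gap was small in class 4 (0.02 for 8 ribosomal protein genes and -0.01 for all genes). Only in class 7 were they lower (-0.04 for 2 genes and -0.03 for all genes). At E18 the median of all genes was 0.05 in the shortest class and -0.15 in the longest. The ribosomal protein genes there lay above their class in some classes and below it in others.

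**Figure D4:**
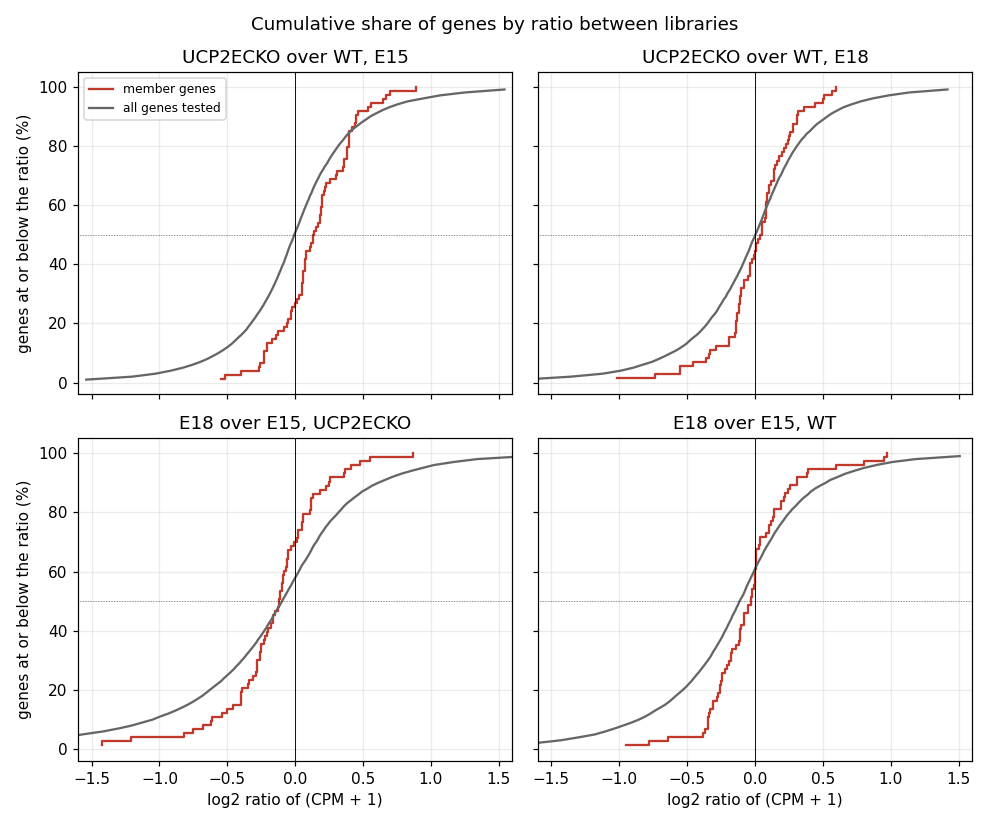
Share of genes (%) at or below each log2 ratio of CPM + 1, for the ribosomal protein genes (red) and all genes tested (grey), in the 4 comparisons. The red curve lies right of the grey one at E15 (medians 0.14 and -0.01), close to it at E18 (0.04 and 0.00), and is steeper than the grey one in all 4 panels.

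Between stages the genes mostly differed little. In UCP2ECKO 22 of the 73 genes that passed (30.1%) were higher in the E18 library than in the E15 library, against 42.1% of all 12465 genes tested. The median log2 ratio of E18 over E15 was -0.12, against -0.10 over all genes. The interval lay below 0 for 31 genes (42.5%, against 43.6% of all genes) and above 0 for 11 (15.1%, against 29.0%). In WT 32 of 74 genes (43.2%) were above 0, against 39.1% of all 12515 genes, with a median of -0.03, against -0.11 over all genes. There the interval lay below 0 for 21 genes (28.4%, against 43.4%) and above 0 for 12 (16.2%, against 24.1%). The stage medians moved with the scaling. With TMM factors, which set the bulk of genes level between libraries, the median of all genes was 0.01 in UCP2ECKO and 0.00 in WT, and that of the ribosomal protein genes was -0.01 in UCP2ECKO and 0.08 in WT. The stage comparisons share their libraries with the genotype comparisons. In WT they set a library with 0 reads of Xist at E18 against one with 2549 at E15, and the part of sex was not tested.

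No gene was past 2-fold between stages in WT, against 3.08% of all genes upward and 7.58% downward, and 3 were lower by more than 2-fold in UCP2ECKO, where 10.9% of all genes were, with none higher (4.34% of all genes). Mrps25 had 29 reads at E18 and 85 at E15 in UCP2ECKO (-1.42), and 55 at E18 and 45 at E15 in WT (-0.00). Mrpl13 had 19 reads at E18 and 65 at E15 in UCP2ECKO (-1.42), and 53 at E18 and 43 at E15 in WT (0.00). In both genes the WT libraries had nearly equal CPM. Mrps22, a small-subunit protein without a bacterial counterpart, had 20 reads at E18 and 56 at E15 in UCP2ECKO (-1.21), and 17 at E18 and 35 at E15 in WT (-0.78), lower at E18 in each genotype. All 3 genes had a mean under 10 CPM. In UCP2ECKO at E18 Mrpl13 (0.864 CPM) and Mrps22 (0.909 CPM) were under 1 CPM. They passed this comparison only through the E15 library, where they were higher.

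Mrps23 and Mrps5 lay higher at E18 in both genotypes. Mrps23 had 85 reads at E18 and 27 at E15 in UCP2ECKO (0.87, interval 0.59 to 1.91), and 100 at E18 and 34 at E15 in WT (0.97, 0.69 to 1.87). Mrps5, at the channel where the messenger RNA enters, had the highest read counts of the 77. It had 3646 reads (166 CPM) at E18 and 2111 (129 CPM) at E15 in UCP2ECKO (0.36, 0.28 to 0.44), and 3212 (168 CPM) at E18 and 2221 (143 CPM) at E15 in WT (0.24, 0.16 to 0.32). Among the highest stage ratios in WT were also those of Mrpl20 (63 reads at E18 and 19 at E15, 0.95), Mrpl52 (57 at E18 and 20 at E15, 0.80), Mrps21 (290 at E18 and 151 at E15, 0.60), Mrps18c (62 at E18 and 35 at E15, 0.39) and Mrps16 (570 at E18 and 354 at E15, 0.38). In each of these genes WT at E15 was the lowest of the 4 libraries by CPM.

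The lowest stage ratios in WT were those of Mrpl33 (15 reads at E18 and 38 at E15, -0.95), Mrps22 and Mrpl19 (293 at E18 and 382 at E15, -0.64), followed by Mrps6 (494 at E18 and 527 at E15, -0.38), Mrpl16 (726 at E18 and 767 at E15, -0.37) and Mrpl14 (185 at E18 and 197 at E15, -0.35). In WT at E18 Mrpl33 (0.786 CPM) and Mrps22 (0.891 CPM) were under 1 CPM and passed only through the E15 library. In UCP2ECKO, after the 3 genes past 2-fold, Mrpl22 had 44 reads at E18 and 70 at E15 (-0.82), Mrpl42 had 316 at E18 and 407 at E15 (-0.75) and Mrps10 had 344 at E18 and 419 at E15 (-0.68). The highest in UCP2ECKO after Mrps23 were Mrps35 (431 at E18 and 214 at E15, 0.55), Mrpl44, related to ribonuclease III (1067 at E18 and 565 at E15, 0.48), Mrpl1 (860 at E18 and 476 at E15, 0.41) and Mrpl43 (1275 at E18 and 728 at E15, 0.37). Mrpl1 and Mrpl43 had the lowest E15 genotype ratios among genes above 10 CPM, and the E15 library enters both comparisons.

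An additive model of stage and genotype was fitted to the 4 libraries over 13416 genes, which leaves 1 residual degree of freedom. That degree of freedom is the difference of the genotype effects between the stages, and not a spread between replicates. By edgeR's quasi-likelihood test with Benjamini-Hochberg adjustment, 0 of the 75 ribosomal protein genes tested passed an adjusted p of 0.05 for genotype, as did 0.0% of all genes. At an unadjusted p of 0.05, edgeR called 0 of the 75 genes, against 5.01% of all genes, and DESeq2 called 0 by adjusted p, against 0.321% of all genes, and 0 at an unadjusted p of 0.05, against 4.55%. The fitted genotype median was 0.08 for the 75 genes, 53 of them above 0, against -0.02 over all genes. The lowest genotype p was that of Mrps12 (log2 0.42, adjusted p = 0.991 by edgeR), followed by Mrpl55 (log2 0.42). For stage edgeR called 0 of the 75 genes by adjusted p, against 0.76% of all genes, and 0 at an unadjusted p of 0.05, against 16.9%. DESeq2 also called 0 for stage by adjusted p, against 5.63% of all genes, and 0 at an unadjusted p of 0.05, against 15.3%. The fitted stage median was -0.12 for the 75 genes and -0.13 for all genes, and the lowest stage p was that of Mrps5 (log2 0.30, adjusted p = 0.358 by edgeR). A p above the threshold does not show that levels were equal.

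The ribosome's other components and partners were set beside these genes. Of the 5 subunit genes that carry other names, 4 were lower in UCP2ECKO at E15 (median -0.19) and 4 higher at E18 (0.08). They include Dap3, a small-subunit GTP-binding protein, with 892 reads in UCP2ECKO and 1081 in WT at E15 (-0.34), and 1383 in UCP2ECKO and 1016 in WT at E18 (0.24). Both ribosomal RNAs of the mitochondrial genome were lower in UCP2ECKO at both stages. The large one, mt-Rnr2, had 42051 reads in UCP2ECKO and 65805 in WT at E15 (-0.72), and 24979 in UCP2ECKO and 29678 in WT at E18 (-0.45). The small one, mt-Rnr1, had 1301 reads in UCP2ECKO and 1749 in WT at E15 (-0.49), and 504 in UCP2ECKO and 603 in WT at E18 (-0.45). At E15 the median of these 2 ribosomal RNAs was -0.60. The protein genes named Mrpl or Mrps had a median of 0.14, on the other side of 0. The 5 subunit genes under other names had -0.19, on the same side as the RNAs. The messenger RNAs of the mitochondrial genome lay below 0 in 10 of 10 at E15 (median -0.35) and in 6 of 9 at E18 (-0.11). Of the 13 genes of this list 11 were found, and their read counts were very uneven. At E15 mt-Co3 had 27 reads in UCP2ECKO and 37 in WT, and mt-Co1 66423 in UCP2ECKO and 79026 in WT. Whether counting lost reads of transcripts of the mitochondrial genome was not tested.

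For assembly factors the median was -0.01 at E15 (11 of 25 above 0) and 0.10 at E18 (17 of 25). Highest among them at E15 was Rcc1l, a factor linked to the large ribosomal RNA, with 302 reads in UCP2ECKO and 87 in WT (1.56), followed by Mrm1 with 378 in UCP2ECKO and 255 in WT (0.47). Lowest were Ybey with 61 reads in UCP2ECKO and 100 in WT (-0.65) and Mettl17 with 267 in UCP2ECKO and 382 in WT (-0.56). For the 12 translation factors it was 0.04 at E15 and -0.10 at E18. Their E15 range was wider than that of the ribosomal proteins, from Mtrf1 (136 reads in UCP2ECKO and 216 in WT, -0.68) and Gfm2 (512 in UCP2ECKO and 577 in WT, -0.24) to Mtrf1l (388 in UCP2ECKO and 126 in WT, 1.44) and Guf1 (261 in UCP2ECKO and 75 in WT, 1.54), the last a GTPase related to bacterial LepA. Enzymes that charge mitochondrial tRNAs had a median of 0.13 at E15 (13 of 22 above 0) and 0.18 at E18 (16 of 22), and their E15 values ran from Qrsl1 (46 reads in UCP2ECKO and 84 in WT, -0.75) and Vars2 (88 in UCP2ECKO and 118 in WT, -0.43) to Iars2 (474 in UCP2ECKO and 212 in WT, 1.04) and Yars2 (185 in UCP2ECKO and 52 in WT, 1.50). Genes of mitochondrial transcription and RNA handling had a median of -0.15 at E15 (4 of 12 above 0) and of 0.24 at E18 (9 of 12).

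**Figure D5:**
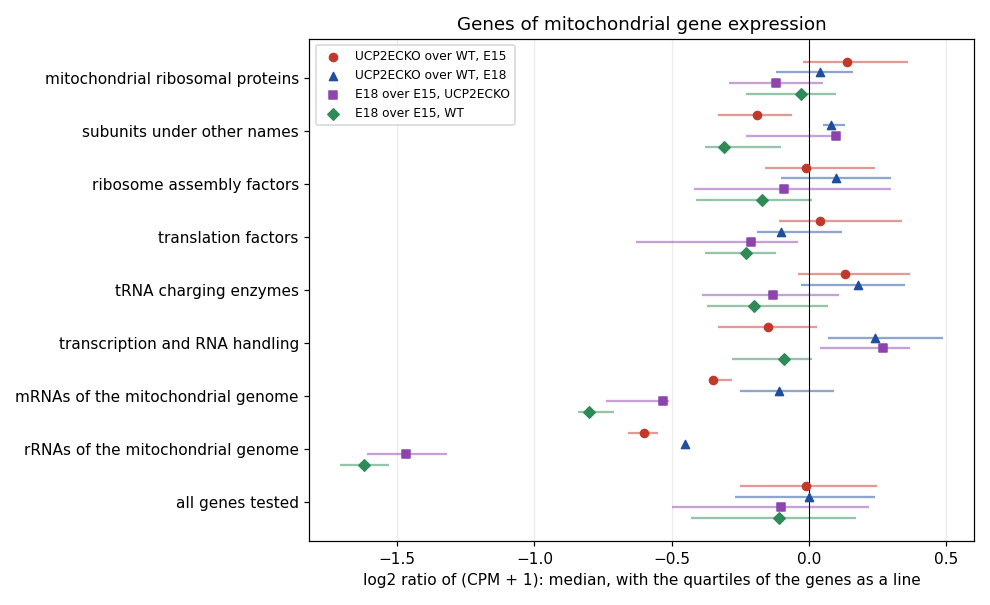
Median log2 ratio of CPM + 1 (points) and quartiles of the genes (lines) for the ribosomal protein genes, 7 related lists and all genes tested, with red circles for UCP2ECKO over WT at E15, blue triangles for UCP2ECKO over WT at E18, purple squares for E18 over E15 in UCP2ECKO and green diamonds for E18 over E15 in WT. The ribosomal RNAs of the mitochondrial genome have the lowest median of these lists in all 4 comparisons.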

How the data were processed

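RNA sequencing of brain endothelial cells gave 1 library for each of 4 groups, placed by their labels. The authors deposited raw read counts per gene in a table per stage, not normalized, per the file headers. Bowtie2 2.2.3, TopHat2 2.0.12, HTSeq 0.6.0 and the build mm9 are named, without roles, per the submitters' processing notes. For 67 of the 77 genes the deposited positions equal those of GENCODE M21 on GRCm38, and overlaps, lengths and copies were read from that annotation (BLAST 2.17.0). The sources used here do not give the strand setting of the counting, so overlapping genes may share reads.

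From the counts, CPM by library totals, log2 ratios of CPM + 1 and 95% Clopper-Pearson intervals were computed in Python 3.11.15 with scipy 1.17.1. Stage ratios used the 16181 genes in both tables. Nothing states that libraries came from separate embryos. The only residual degree of freedom of the additive fit is the difference of the genotype effects between stages. Its p-values therefore measure no spread between replicates. The additive fit used edgeR 4.0.16 in R 4.3.3 on genes with at least 1 CPM in 2 libraries, with DESeq2 1.42.0 as the alternative. The edgeR genotype test was tried on simulated counts. Their genotype differences were larger than those fitted for the ribosomal protein genes, and their spread was smaller than in these data.

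The members, the related lists and the motifs were chosen with earlier results of these data known. Named are, in each of the 4 comparisons, the genes past 2-fold and the 6 highest and 6 lowest, the 6 with the highest and lowest level per kb, and the 2 highest and 2 lowest of related lists. Genes named in other contexts were chosen after their values were seen.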

Additional observations from a re-analysis of the deposited data

Results flagged for a closer look

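For 10 genes the counting interval of the genotype ratio, UCP2ECKO over WT, lay wholly on 1 side of 0 at E15 and wholly on the other side at E18. This was 13.9% of the 72 genes passing at both stages, against 18.5% of all genes. With 1 library a group the difference between stages was not tested. In 5 of them the log2 ratio was positive at E15 and negative at E18. It was 0.54 at E15 and -0.55 at E18 for Mrpl52, 0.67 and -0.74 for Mrps25, and 0.56 and -0.46 for Mrpl20, in the same order of stages. For the small-subunit head proteins it was 0.35 at E15 and -0.34 at E18 for Mrps10, and 0.19 and -0.33 for Mrps9. The other 5 had the opposite order. The ratio was -0.21 at E15 and 0.28 at E18 for Mrpl16, -0.55 and 0.15 for Mrpl43, -0.23 and 0.32 for Mrpl44, -0.27 and 0.60 for Mrpl19, and -0.21 and 0.16 for Mrpl46. Mrpl52, Mrps25 and Mrpl20 had a mean under 10 CPM, and the others a mean of at least 10 CPM.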

How the results depend on the processing

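The E15 genotype median stayed between 0.10 and 0.17 over the alternatives run, and the additive tests called 0 genes in each. The E18 median of 0.04 was -0.01 after centring by length (47.2% of genes above 0, with the median of all genes set to 0) and -0.01 without overlapping genes (48.6%, against 50.3%). The E18 count past 2-fold, 1 in the main setting, was 0 with a pseudocount of 5 CPM, with a filter at 5 CPM, with ratios centred by exonic length, and without genes that overlap another gene. That gene, Mrpl13, is itself left out by the filter at 5 CPM and by the overlap setting. The stage ratios moved more. In UCP2ECKO the median of -0.12 was -0.01 with TMM factors, -0.00 with DESeq2 size factors and -0.04 after centring by length, and the 22 genes above 0 (30.1%, against 42.1% of all genes) were 35 with TMM (47.9%, against 50.8%) and 36 with DESeq2 factors (49.3%, against 51.6%). The 3 genes past 2-fold there were 0 with a pseudocount of 5 CPM, 1 with a filter at 5 CPM and 0 without overlapping genes. All 3 (Mrps25, Mrpl13 and Mrps22) overlap another gene, so the last setting leaves them out. The filter at 5 CPM leaves out Mrpl13 and Mrps22. In WT the median of -0.03 was 0.08 with TMM factors, 0.08 with DESeq2 factors, 0.07 after centring by length and 0.01 without overlapping genes. The count past 2-fold there, 0 in the main setting, was 2 with TMM factors, 2 with DESeq2 factors, 2 after centring by length and 3 with a pseudocount of 0.5 CPM. The scaling alternatives move all genes alike. Apart from these and from genes left out by a setting, the cause of the shifts was not tested. The counts above 0 were added to the alternatives after seeing the data. No paired analysis was possible because the groups compared share fewer than 2 replicate numbers. Leaving out a library leaves a group empty, so it was not run. Between 7 and 13 of the 77 genes had under 50 reads in a library, and depth limits those ratios most.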

Other observations

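Pseudogenes of the family were also counted. Mrpl48-ps had 82 reads in UCP2ECKO and 43 in WT at E15, and 67 in UCP2ECKO and 132 in WT at E18. Its parent gene Mrpl48 had 303 reads in UCP2ECKO and 341 in WT at E15, and 347 in UCP2ECKO and 333 in WT at E18. The log2 ratio of CPM + 1, UCP2ECKO over WT, was 0.68 for the copy and -0.23 for the parent at E15, and -0.97 for the copy and -0.14 for the parent at E18. Mrpl23-ps1 had 27 reads in UCP2ECKO and 28 in WT at E15, and 32 in UCP2ECKO and 29 in WT at E18.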
